A study of Homo sapiens with 6 samples.

Results

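The genes described here encode 37 translation initiation factors, the proteins that bring a messenger and the initiator transfer RNA to the ribosome and set it on the start codon. They were chosen by name, with earlier results of these data known. They are the factors of the eIF1, eIF1A, eIF2, eIF2B, eIF3, eIF4F, eIF5, eIF5B and eIF6 groups with the inhibitors of eIF4E. All 37 were found among the 11227 named genes of the deposited tables. The cells were CHL-1, a long-established line from a human melanoma, grown in DMEM with serum, and their ribosome-protected fragments were sequenced. The first group was CHL-1 given 10 mM AZC, a proline analog that is built into new proteins and makes them misfold, together with 20 µM MG132, which blocks the proteasome. The treatment lasted 20 minutes. The second was CHL-1 carrying a CRISPR edit of SNORD50A/B, 2 genes of small nucleolar RNAs. The third was the parental line, which had no listed treatment and is the control of both comparisons.

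Each group had 2 libraries, of which 1 is labelled as having had ribosomal RNA removed, and each group has 1 table, with no column for either library. Every difference below therefore lies between single tables, with no spread between replicates, no error and no test, and is given by its size beside the same quantity over all genes. The labels name no control-edited line and do not say whether the edited cells were 1 clone or a pool. Whether the edit is present was not testable with these tables. A footprint level also mixes the amount of a messenger with how many ribosomes sit on it, and the 2 cannot be told apart in these tables.

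Initiation begins when eIF2 carries the initiator transfer RNA to the small ribosomal subunit, beside eIF1, eIF1A, eIF3 and eIF5. The eIF4F complex, made of the cap-binding eIF4E, the helicase eIF4A and the scaffold eIF4G, brings the messenger, and the loaded subunit scans to a start codon. Under protein-folding and amino acid stress, kinases phosphorylate eIF2, which then blocks its own exchange factor eIF2B and slows initiation. Growth signalling through mTOR acts on another step, by releasing eIF4E from its inhibitors and by favouring messengers that open with a run of pyrimidines, the 5′ TOP messengers, which include several initiation factors.

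The AZC + MG132 table held a summed coding depth of 286.9, in units of 1000000 bases, against 405.6 in the parental table, and the CRISPR table held 497.1. Coding bins took 78.1% of the depth in the AZC + MG132 table and 84.8% in the CRISPR table, against 85.6% in the parental table. The level of a gene below is its coding depth per 1000000 of the table's coding depth. It is not corrected for length, so it can be compared between tables but not between genes. A gene was compared where its coding depth passed the lower quartile of all rows in both tables. Of the genes used to check the melanoma line SOX10 had coding levels of 326.6, 346.4 and 382.8 in the AZC + MG132, CRISPR and parental tables. VIM had 780.2, 875.4 and 1011 in the same order. The pigment gene MLANA had no coding depth in any table and TYR no row. PMEL had 2.39 in the AZC + MG132 table and 2.50 in the parental table, below the minimum depth in both. It had no value in the CRISPR table. Some of the genes checked differed in the edited line, where NGFR had 5.68, against 35.5 in the parental line, and DCT 15.9, against 3.96. Each was below the minimum depth in at least 1 of the edited and parental tables. MITF had 11.04 in edited cells, against 6.86 in parental cells, with depths of 1.87 and 1.08 times the minimum. In treated cells it was below the minimum. For KRT5, KRT14, PECAM1 and EPCAM, markers of other cell types, no row was found, and PTPRC had one in the CRISPR table alone, at 2.66. The part of these differences in the results below was not tested.

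The first transcribed bases are shown because a pyrimidine run there is what defines a 5′ TOP messenger. RefSeq start sites of assembly GRCh38.p14 were matched by symbol for 30 of the 37 genes. Each line gives 5 bases before the annotated start and the 25 from it onwards, 5′ to 3′ on the gene's strand. Capitals mark the longest run of C and T letters that begins with C within 10 bases of the start and is at least 5 long. It was searched in the orientation printed.
EIF3F: gCCTCCTTCTTTCTCgacaagatggccaca
EIF4B: cgggtcttttgcgttCTCTTTCCCTCTCCC
EIF2S3: CCTTCCTCTTTTggcaacatggcgggcgga
EIF3D: gtttCCTCTTTTCCTggtttctcaagagtg
EIF4A2: gctgtCTTTTCagtcgggcgctgagtggtt
EIF4A1: tccgccctagtttctaaggatcatgtctgc
EIF4G1: gagccggaaatggttgtggactacgtctgt

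These lie at chr11:7987332-7987361 (EIF3F), chr12:53006451-53006480 (EIF4B), chrX:24054951-24054980 (EIF2S3), chr3:186783572-186783601 (EIF4A2), chr17:7572820-7572849 (EIF4A1) and chr3:184314601-184314630 (EIF4G1) on the plus strand, and at chr22:36529142-36529171 (EIF3D) on the minus strand. The runs of EIF3F and EIF2S3 begin just before the annotated start, that of EIF3D 1 base before it, that of EIF4A2 at it, and that of EIF4B 10 bases after it. EIF4B also has a shorter run of 5 at its annotated start, left in lower case. EIF4A1 and EIF4G1 have no such run in this window. A run was found at 16 of the 30 starts (53.3%), against 33.9% of the 9316 listed genes with a RefSeq start and 33.3% of all 27305. A run of 9 or more, a length set after the runs were seen, was found at 6 of the 30 (20.0%), against 7.26% of listed genes. A match in these letters is a description and not a measured start.

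**Figure D1:**
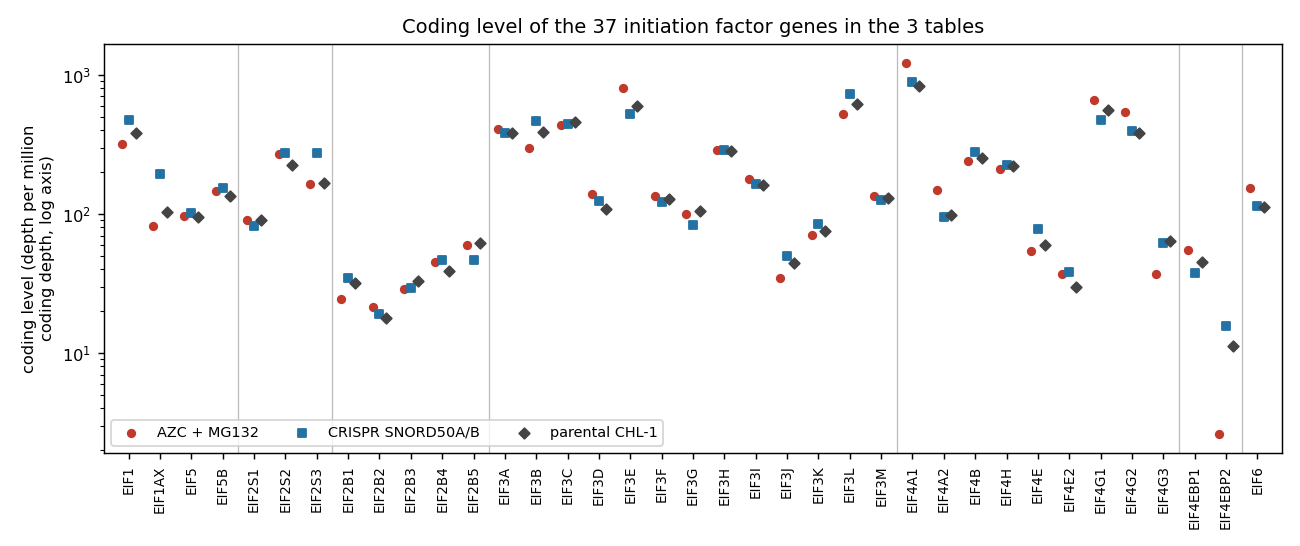
Coding level of each of the 37 initiation factor genes, per 1000000 of the table's coding depth on a log axis, in the AZC + MG132, CRISPR and parental tables, with 1 point per table. The points of a gene lie close together for most genes, while EIF4EBP2 stands at 2.61 in the AZC + MG132 table, against 11.3 in the parental table.

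In cells given AZC with MG132 none of the 36 factor genes that could be compared had a coding level 2-fold or more above or below the parental level, against 3.43% of all 7295 genes compared. Their median log2 ratio was 0.03, against -0.02 over all genes, with 20 of 36 genes above 0 (48.0% of all genes) and 16 below. The ratios ran from -0.79 for EIF4G3 to 0.58 for EIF4A2. Within 0.5 of 0 lay 33 of the 36 genes, against 76.3% of all genes. Where the minimum depth was set 4 times higher, it was 31 of 34 genes (91.2%), against 85.1% of all genes, so the gap to all genes was smaller there. EIF4EBP2 was below the minimum in the treated table and is described with the eIF4E inhibitors.

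In the SNORD50A/B-edited line the 37 genes were compared and again none was 2-fold or more higher or lower, against 2.79% of all 7559 genes. The median log2 ratio was 0.09, against 0.00 over all genes, with 25 genes above 0 and 12 below, where 50.6% of all genes lay above 0. The ratios ran from -0.40 for EIF2B5 to 0.89 for EIF1AX, and 35 of the 37 lay within 0.5 of 0, against 78.0% of all genes. At the higher minimum depth it was 33 of 35 genes (94.3%), against 88.0% of all genes. The AZC + MG132 and the edited comparisons share the parental table, so their values stand side by side below and are not set against each other.

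**Figure D2:**
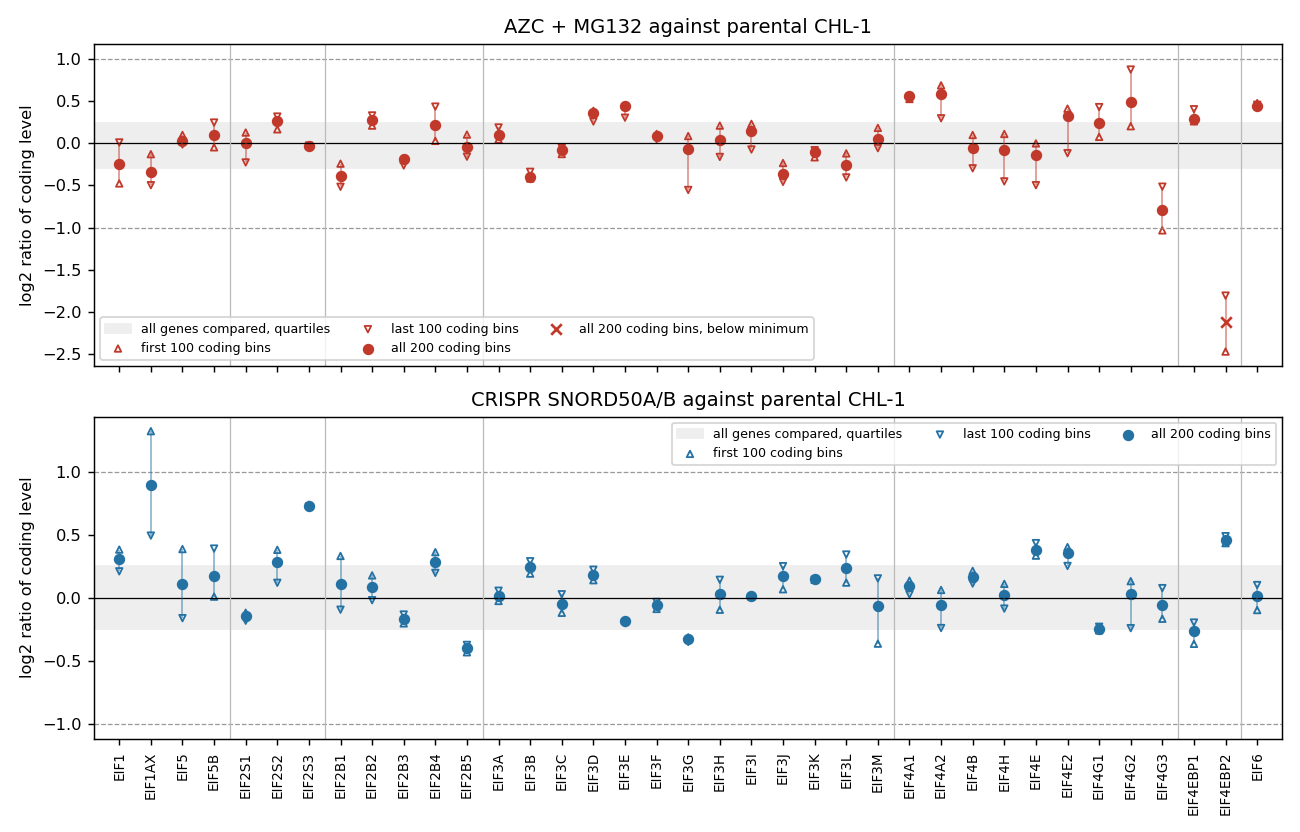
log2 ratio of the coding level to the parental level for each initiation factor gene, AZC + MG132 in the upper panel and CRISPR in the lower, from all, the first 100 and the last 100 coding bins. The grey band is the interquartile range over all genes and the cross is EIF4EBP2, below the minimum depth in the AZC + MG132 table. Most genes lie within 0.5 of 0 in both panels, with EIF1AX at 0.89 and EIF2S3 at 0.73 the highest in the CRISPR panel.

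The factors of start codon selection and scanning had a median log2 ratio of -0.11 in treated cells, with 2 of 4 genes above 0. EIF1 guards against starting at the wrong codon and limits its own translation through the poor setting of its start codon. Its coding level was 319.9 in AZC + MG132 cells, against 379.8 in parental cells, a log2 ratio of -0.25. EIF5, which promotes hydrolysis of the GTP on eIF2 at the start codon, had 96.4 in treated cells, against 94.7 in parental cells, a ratio of 0.03. EIF5B, which joins the large subunit, had 145.4 in treated cells, against 135.6 in parental cells. EIF1AX, which encodes the X-linked eIF1A that keeps the subunit open for scanning, had 81.7 in treated cells, against 103.7 in parental cells, a ratio of -0.34.

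In the edited line all 4 of these genes lay above 0, with a median of 0.24. EIF1AX had the highest log2 ratio of the 37 genes, with a coding level of 192.4 in the edited line, against 103.7 in the parental line, a 1.86-fold difference. The excess was uneven along its coding sequence, at 1.32 over the first 100 coding bins and 0.49 over the last 100. EIF1 had 470.5 in edited cells, against 379.8 in parental cells (log2 ratio 0.31). EIF5 and EIF5B had smaller differences, with ratios of 0.11 and 0.17.

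The 3 subunits of eIF2, the carrier of the initiator transfer RNA, were close to parental levels in treated cells. EIF2S1, the α subunit that the stress kinases phosphorylate, had 90.4 in AZC + MG132 cells, against 90.0 in parental cells, a log2 ratio of 0.01. EIF2S2, the β subunit, had 270.5 in treated cells, against 226.2 in parental cells (0.26), and EIF2S3, the γ subunit that binds GTP and the transfer RNA, had 163.4, against 166.6 (-0.03). These ratios speak of footprints on the messengers and not of phosphorylation, which was not measured.

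In edited cells the 3 subunits did not lie together. EIF2S3, which like EIF1AX is on the X chromosome, had 276.4 in the edited line, against 166.6 in the parental line, a log2 ratio of 0.73. The sums over the first and last 100 coding bins gave 0.74 and 0.72. Between windows of 20 bins it varied, with 42.3 in edited cells, against 17.5 in parental cells, in the last window, and 19.9, against 19.3, in bins 221 to 240. EIF2S2 stood at 275.7 in edited cells, against 226.2 in parental cells (0.29), and EIF2S1 at 81.4, against 90.0 (-0.15).

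The 5 subunits of eIF2B, the exchange factor that recharges eIF2 with GTP, had a median log2 ratio of -0.04 in treated cells, with 2 above 0. EIF2B1, the α subunit of the regulatory core, had 24.4 in AZC + MG132 cells, against 32.0 in parental cells (-0.39). The other core subunits EIF2B2 and EIF2B4 had 21.5 and 44.9 in treated cells, against 17.8 and 38.6 in parental cells, ratios of 0.27 and 0.22. EIF2B3, the partner of the catalytic subunit, had 29.0 in treated cells, against 33.0 in parental cells (-0.18). EIF2B5, the catalytic subunit, had 59.5 in treated cells, against 61.4 in parental cells (-0.04). In the edited line the median was 0.09, and EIF2B5 had the lowest ratio of all 37 genes, with 46.5 in edited cells, against 61.4 in parental cells (-0.40). The other 4 eIF2B genes lay between -0.17 and 0.29 in edited cells.

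The 13 subunits of eIF3, the large complex that holds the small subunit together with its partners, were close to parental levels in both comparisons. In AZC + MG132 cells their median log2 ratio was 0.04, with 7 above 0 and 6 below. All 13 lay within 0.5 of 0, against 76.3% of all genes. In edited cells the median was 0.02, with 8 above 0 and 5 below. Again all 13 lay within 0.5, against 78.0% of all genes. The standard deviation over the 13 ratios was 0.25 in treated cells, where that over all genes was 0.46, and 0.17 in edited cells, where it was 0.43. All 13 genes passed the 4 times higher minimum depth. There 85.1% of all genes lay within 0.5 in treated cells and 88.0% in edited cells. The standard deviation over all genes was not computed there, so the part of depth in this gap was not tested. The summed coding level of the 13 subunits was 3551 in treated cells, against 3486 in parental cells, and 3594 in edited cells, against the same 3486.

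Within eIF3 the highest ratio in treated cells was that of EIF3E, with 810.0 in AZC + MG132 cells, against 597.6 in parental cells (0.44). EIF3B, a scaffold subunit with an RNA-binding domain, had 297.9 in treated cells, against 391.7 in parental cells (-0.39). EIF3J, a loosely bound subunit that reaches the messenger channel, had 34.8 in treated cells, against 44.7 in parental cells (-0.36). EIF3F and EIF3H, the paired subunits with an MPN fold, had 135.3 and 290.0 in treated cells, against 128.1 and 281.7 in parental cells, ratios of 0.08 and 0.04. EIF3D, a subunit that can itself bind caps, had 138.8 in treated cells, against 108.7 in parental cells (0.35). The large core subunit EIF3A had 406.3 in treated cells, against 380.4 in parental cells (0.09). EIF3C, another core subunit, had 433.6 in treated cells, against 459.6 in parental cells (-0.08). Its near copy EIF3CL carried nearly the same values, with 433.5 in treated cells, against 459.7 in parental cells, so the separate values of the pair are uncertain. EIF3L had 519.2 in treated cells, against 618.9 in parental cells (-0.25), and EIF3G, EIF3I, EIF3K and EIF3M lay between -0.10 and 0.14.

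In edited cells EIF3G, a subunit with an RNA-binding domain, was the lowest of the 13, with 83.8 in edited cells, against 104.9 in parental cells (-0.32). EIF3B had 463.7 in edited cells, against 391.7 in parental cells (0.24), and EIF3E had 527.1, against 597.6 (-0.18). The other 10 subunits lay between -0.06 and 0.24. No eIF3 gene therefore came near a 2-fold difference in either comparison.

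In treated cells the 9 genes of eIF4F and its helpers spread more widely than those of eIF3. Their median log2 ratio was 0.24, with a range from -0.79 to 0.58. The standard deviation of their ratios was 0.44, close to the 0.46 over all genes. EIF4A1, the main helicase, had a coding level of 1227 in AZC + MG132 cells, against 832.8 in parental cells (0.56). EIF4A2, its paralog, had 148.2 in treated cells, against 99.1 in parental cells (0.58). The sequences of this pair are alike, and no label says how reads shared between them were assigned. The ratio of EIF4A1 was similar over the first and last 100 coding bins, at 0.52 and 0.55, while that of EIF4A2 was 0.68 over the first and 0.29 over the last.

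Among the scaffolds, EIF4G1, the main one, had 664.6 in treated cells, against 563.6 in parental cells (0.24). EIF4G2, a relative that lacks the eIF4E-binding part and starts at a GUG codon, had 538.2 in treated cells, against 383.9 in parental cells (0.49). Its ratio rested on the end of the coding sequence, at 0.20 over the first 100 coding bins and 0.87 over the last 100. EIF4G3, another full-length scaffold, was the lowest of the 36 genes, with 37.1 in treated cells, against 64.2 in parental cells (-0.79). The ratio of EIF4G3 was -1.03 over the first 100 coding bins and -0.51 over the last 100, so it passed 2-fold in the first part alone.

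Of the cap-binding proteins, EIF4E had 53.8 in treated cells, against 59.5 in parental cells (-0.14), and EIF4E2, which binds caps but represses, had 37.01, against 29.66 (0.32). The helicase helpers EIF4B and EIF4H had ratios of -0.06 and -0.08, with 240.2 and 210.3 in treated cells, against 250.8 and 222.7 in parental cells. EIF6, which keeps the large subunit from joining too early, had 153.2 in treated cells, against 112.8 in parental cells (0.44).

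In the edited line the eIF4F group had a median of 0.03 and a range from -0.24 to 0.38. EIF4E was the highest of the group, with 77.5 in edited cells, against 59.5 in parental cells (0.38), and EIF4G1 the lowest, with 476.0, against 563.6 (-0.24). EIF4A1 and EIF4A2 had ratios of 0.09 and -0.06, and EIF6 one of 0.01.

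The inhibitors of eIF4E are small proteins that hold it away from eIF4G when mTOR is inactive. EIF4EBP1 had 54.9 in AZC + MG132 cells, against 45.0 in parental cells (0.29), and 37.6 in edited cells, against 45.0 (-0.26). EIF4EBP2 had 2.61 in treated cells, against 11.3 in parental cells, which is 0.23-fold, but its treated coding depth of 748 bases was 0.39 times the minimum, so it entered no count. The deficit of EIF4EBP2 was seen in both parts of its coding sequence, with -2.47 over the first and -1.80 over the last 100 bins. In edited cells EIF4EBP2 had 15.6, against 11.3 in parental cells (0.46).

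The described 5′ TOP messengers among the factors, EIF3E, EIF3F, EIF3H and EIF4B, had a median log2 ratio of 0.06 in treated cells, with 3 of 4 above 0, and of -0.01 in edited cells, with 2 of 4 above 0. Over the 15 compared genes with a pyrimidine run at the RefSeq start the median in treated cells was -0.04, and over the 14 without one it was 0.06. EIF3E and EIF3H had no matched RefSeq start and are in neither group. TPT1, a 5′ TOP messenger that is no initiation factor, stood at 112.6 in treated cells, against 325.6 in parental cells, a log2 ratio of -1.53. None of the 4 TOP factors came near the difference of TPT1.

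The place of the footprints along the messenger was compared next. As a measure of it, the 5′ share divides the mean depth over the first 20 of 200 coding bins by the mean over all of them, so 1 means an even start. In treated cells the median 5′ share of the factors was 1.64, against 0.98 in parental cells, and over all genes it was 1.42 in treated cells, against 0.93 in parental cells. The log2 ratio of 5′ shares, the 5′ shift, had a median of 0.74 over the factors and 0.60 over all genes. It was above 0 in 32 of 36 factors (79.2% of all genes) and 1 or more in 7 of 36 (27.1% of all genes). The median and the share above 0 of the factors lay a little over those of all genes, and the share at 1 or more lay under it.

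**Figure D3:**
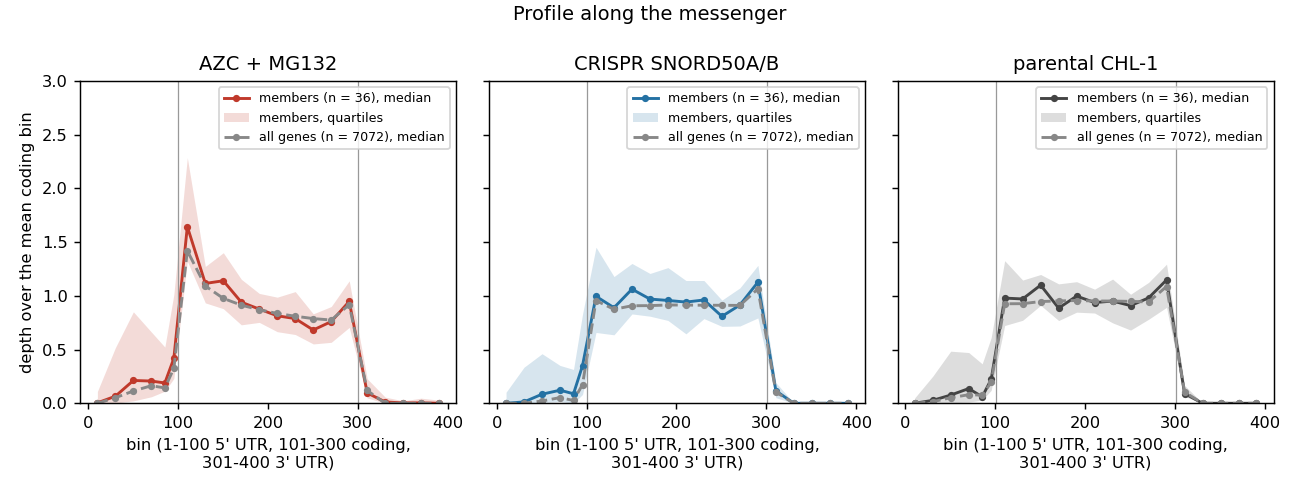
Median profile of the initiation factor genes and of all genes along 5′ UTR, coding and 3′ UTR bins in the AZC + MG132, CRISPR and parental tables, each gene scaled to its mean coding depth. Shading is the interquartile range over the factors. In the first 20 coding bins the factors stand at 1.64 in the AZC + MG132 table and 0.996 in the CRISPR table, against 0.979 in the parental table.

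The shift was above 0 in all 13 eIF3 genes (79.2% of all genes), with a median of 0.91, and 1 or more in 4 of 13, near the 27.1% of all genes. EIF3F had a 5′ share of 2.51 in treated cells, against 1.02 in parental cells, a shift of 1.30, and EIF3L, a peripheral subunit, had 2.28, against 0.98 (1.22). EIF2B5 had the largest shift of the 36, with a 5′ share of 1.37 in treated cells, against 0.54 in parental cells (1.34). Its coding level was close to parental, so the same depth lay differently along the messenger.

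Shifts below 0 were found in 4 compared genes, EIF4G2, EIF4G3, EIF4E2 and EIF4EBP1. EIF4G2 had a 5′ share of 2.29 in treated cells, against 2.96 in parental cells (-0.37). The shifts of EIF4G3, EIF4E2 and EIF4EBP1 were -0.18, -0.15 and -0.11. In 20 of 36 factors the first of 10 coding windows had the highest ratio of treated to parental level, against 32.6% of all genes. It had the highest ratio of edited to parental level in 4 of 37 factors, against 13.6% of all genes. These shares were not computed at a higher minimum depth. In the treated table the factors had a median of 200 covered coding bins, against 161 over all genes. The part of depth in these gaps was not tested.

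In edited cells the 5′ share of the factors had a median of 1.02, against 0.98 in parental cells, and the median 5′ shift was 0.07, where it was 0.06 over all genes. It was above 0 in 24 of 37 factors, against 53.4% of all genes. The largest shifts were those of EIF4EBP2 (0.70), EIF2B1 (0.62) and EIF4B (0.58). EIF2B2, a subunit of the eIF2B core, had a 5′ share of 0.49 in edited cells, against 1.32 in parental cells (-1.43), with 132 of its 200 coding bins covered in the edited table. EIF3J had 0.38 in edited cells, against 0.60 in parental cells (-0.66). EIF4E2 had no depth in its first 20 coding bins in the edited table, so its shift has no interpretable size.

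Footprints before the start codon were also denser in treated cells. The share of 5′ UTR plus coding depth that lay in the 5′ UTR had a median of 13.2% over the factors in AZC + MG132 cells, against 6.28% in parental cells, and 9.70% over all genes, against 5.12%. It was higher than in parental cells in 35 of 36 factors, against 80.5% of all genes, and the exception was EIF4E2. The median gene difference was 4.93 percentage points over the factors and 3.31 over all genes. At the 4 times higher minimum depth it was 4.18 over 34 factors and 3.34 over all genes, so the gap was smaller there. The share of genes with a higher value was not computed at that minimum. In edited cells the share was higher in 20 of 37 factors, against 51.3% of all genes, with a median difference of 0.45 points.

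**Figure D4:**
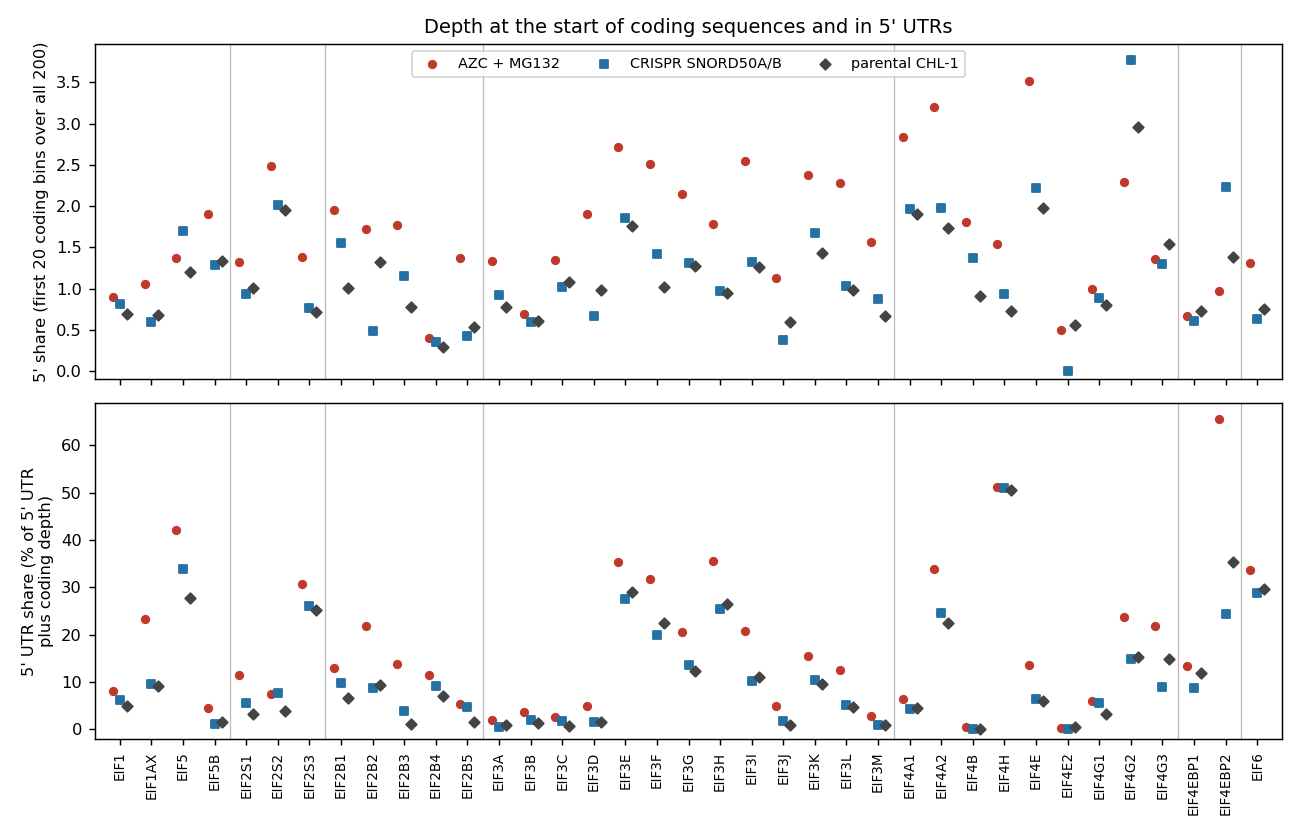
5′ share (mean depth of the first 20 coding bins over the mean of all 200, upper panel) and 5′ UTR share (% of 5′ UTR plus coding depth, lower panel) of each initiation factor gene, with 1 point each for the AZC + MG132, CRISPR and parental tables. The AZC + MG132 point lies above the parental point for 32 of 36 compared genes in the upper panel and 35 of 36 in the lower, and the CRISPR point for 24 and 20 of 37.

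Several factors carried much of their depth in the annotated 5′ UTR in every table. EIF4H had 51.3% of its depth there in treated cells and 51.1% in edited cells, against 50.6% in parental cells. EIF5, whose messenger holds upstream start codons, had 42.1% in treated cells and 33.9% in edited cells, against 27.9% in parental cells. EIF3H had 35.6% and 25.4%, against 26.5%, and EIF3E had 35.3% and 27.6%, against 29.1%. EIF6 had 33.7% in treated cells and 28.8% in edited cells, against 29.7% in parental cells. EIF4H and EIF5 each have 2 listed transcripts and EIF6 has 4, and 1 per gene was used. Whether their 5′ UTR bins hold coding footprints of another transcript was not tested. Among genes with a low parental share, EIF2B3 had 13.7% in treated cells, against 1.19% in parental cells, and EIF2S1 11.4%, against 3.21%.

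Much of the 5′ UTR excess of EIF4G2 in treated cells lay in a narrow stretch. Bins 41 to 60 of its 5′ UTR held a level of 98.5 in treated cells and 35.0 in edited cells, against 33.3 in parental cells. Its whole 5′ UTR held 168.5 in treated cells and 68.8 in edited cells, against 68.9 in parental cells. Annotated 5′ UTR bins of this gene can hold coding footprints, since they depend on where the transcript model places its start.

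Depth after the stop codon is given for 3 factors chosen after their values were seen. The share of all depth in the 3′ UTR was 10 points or more higher in treated cells for EIF4E and EIF4A2, 2 of 36, a share near the 3.47% of all genes. EIF4E had 30.6% of its depth there in treated cells and 1.58% in edited cells, against 1.68% in parental cells. Its 3′ UTR level was 27.5 in treated cells, against 1.08 in parental cells, and 14.1 of the treated level lay in the first 20 of the 100 bins. EIF4A2 had 16.6% of its depth in the 3′ UTR in treated cells and 5.58% in edited cells, against 4.61% in parental cells. EIF1 had 23.1% of its depth there in treated cells and 17.5% in edited cells, against 15.3% in parental cells. In edited cells no factor had a 3′ UTR share 10 points higher, against 0.979% of all genes.

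**Figure D5:**
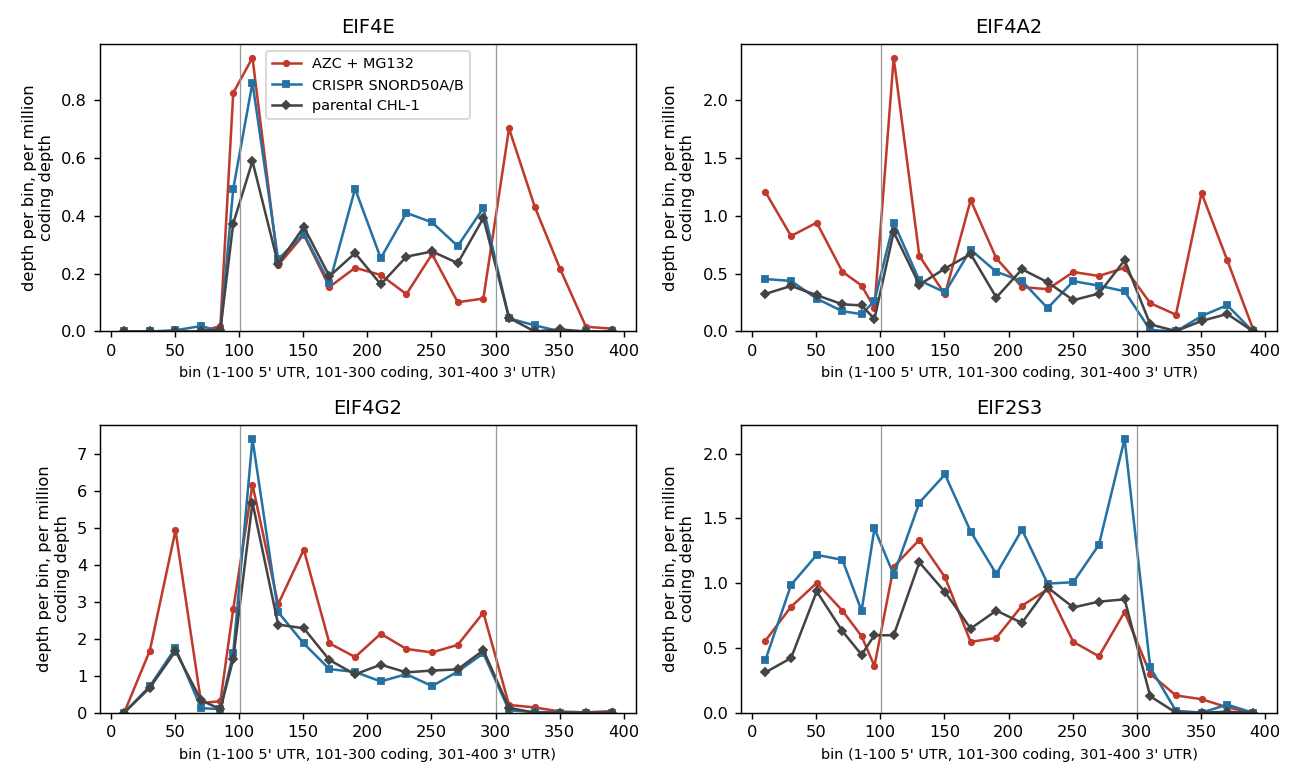
Level per bin in windows along 5′ UTR, coding and 3′ UTR bins for EIF4E, EIF4A2, EIF4G2 and EIF2S3 in the AZC + MG132, CRISPR and parental tables. EIF4E shows depth after the stop codon in the AZC + MG132 table, EIF4G2 a narrow 5′ UTR peak (98.5 summed over its 20 bins in the AZC + MG132 table, against 33.3 in the parental table), and EIF2S3 a CRISPR line above the parental line in the last coding window (42.3 summed over its 20 bins in the CRISPR table, against 17.5 in the parental table).

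Other genes that act on initiation were set beside the 37, from a list of 39 of which 38 had a row. In treated cells 35 were compared, with a median log2 ratio of -0.08, none 2-fold or more higher (1.10% of all genes) and 2 of 35 that far lower (2.33% of all genes). MKNK2 was not counted, since its treated coding depth was 0.29 times the minimum. It had 1.93 in treated cells, against 12.04 in parental cells. PABPC1, the messenger of the main poly(A)-binding protein, which holds on to eIF4G, had 66.6 in treated cells and 374.6 in edited cells, against 394.1 in parental cells, log2 ratios of -2.56 and -0.07. Reads of PABPC1 can be shared with near copies, so its own value is uncertain. PABPC4, its relative, had 70.4 in treated cells, against 128.1 in parental cells (-0.86). EIF2AK4, the eIF2 kinase that senses uncharged transfer RNA, had 10.98 in treated cells and 12.32 in edited cells, against 26.00 in parental cells. Its log2 ratios were -1.24 and -1.08. Coverage was thin, with 64 coding bins covered in treated cells and 40 in edited cells, against 130 in parental cells. Its coding depth was 1.65 times the minimum in treated cells and 2.09 times in edited cells, below the 4 times higher minimum.

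In edited cells 36 of these genes were compared, with a median of -0.06, none 2-fold or more higher (1.20% of all genes) and EIF2AK4 alone that far lower (1.59% of all genes). The phosphatase subunits PPP1CA and PPP1CB had ratios between -0.23 and 0.09 in both comparisons, and PPP1CC had -0.44 in treated and 0.17 in edited cells. PPP1R15A, the inducible partner that turns them on eIF2, had 38.9 in treated cells, against 4.06 in parental cells, where it was below the minimum depth and was not counted. EIF5A, a factor of elongation and termination that was once classed with initiation, had 634.5 in treated cells, against 500.4 in parental cells (0.34), and DHX9, an RNA helicase, had 863.8, against 650.8 (0.41).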

How the data were processed

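Per the labels' protocols, ribosome-protected fragments came from cells lysed with cycloheximide. The submitters' processing notes name Bowtie2, TopHat2 and hg19. The authors deposited log2(x + 1) values, rounded to 2 decimals, for 400 bins per RefSeq transcript (100 in the 5′ UTR, 200 coding, 100 in the 3′ UTR, read from the values), where x is summed base depth. Coding bins also held the deposited value of the row above, which was subtracted. The way in which the paired libraries were combined is not given in the sources. Since a footprint adds depth at each of its bases, read numbers are unknown and no interval is given.

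Per gene the transcript with most depth over the 3 tables was used, named from RefSeq (GRCh38.p14, names only). Log2 ratios used a pseudocount of 0.5 on summed depth. A limit of 2-fold is one of size. Coding bins were chosen over all bins because UTR depth differed between tables. The table labelled as control was taken as parental. Members and lists were chosen with earlier results of these data known. Named are genes past 2-fold, the 4 highest and 4 lowest ratios per comparison, the 3 largest and smallest 5′ shifts, the 3 highest 5′ UTR shares, a fixed set, and per list of other genes those past 2-fold and the 2 with the highest level; further genes were added by role. Depth per base was not computed, since gene lengths were not used here. Steps ran in Python 3.11.15 with NumPy 2.4.6 and pandas 2.3.3 and were tested on simulated data.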

Additional observations from a re-analysis of the deposited data

How the results depend on the processing

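No paired analysis was possible because the tables carry no column for a library, and for the same reason no library could be left out. Settings tried were all 400 bins, the first or last 100 coding bins, values as deposited, other pseudocounts and minimum depths, another transcript per gene, other windows and, chosen after seeing the data, at least 100 covered coding bins. Of 74 alternative values of the main results, 67 stayed within the limits set (0.1 for a median log2 value, 1 point for a share, 1.5 times for a count). In treated cells the count of factors past 2-fold was 1 with all 400 bins (EIF4EBP2), 1 with the first 100 coding bins (EIF4G3) and 1 with no minimum depth (EIF4EBP2). The median 5′ shift was 0.54 with a window of 40 bins and 0.59 with bins 4 to 20, and the median 5′ UTR difference was 3.73 points without the last 10 UTR bins. In edited cells 1 factor, EIF1AX, was past 2-fold with the first 100 coding bins. Over all genes the count past 2-fold ran from 48 to 832 in treated cells, against 250 as reported, and from 29 to 872 in edited cells, against 211. Single-gene signs held in every setting for 20 of 36 factors in treated cells and 25 of 37 in edited cells. Ratios near 0 therefore have no firm direction, and neither do some further from it. In treated cells EIF4E2 (0.32 as reported) ran from -0.12 to 0.45 between settings. EIF1 (-0.25) ran from -0.48 to 0.01 and EIF4E (-0.14) from -0.50 to 0.35. Each cause was not tested.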

Other observations

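EIF1AX and EIF2S3, the highest coding ratios of the factors in the edited line, both lie on the X chromosome, and their neighbours there were looked at after these values were seen. Order along the chromosome was taken from the RefSeq gene table. Among the 20 compared neighbours of EIF1AX (10 on each side) the median log2 ratio in edited cells was 0.43, with 17 of 20 above 0. Among the 20 neighbours of EIF2S3 it was 0.24, with 14 of 20 above 0. Each set holds the other factor, so both counts include a value that led to the choice of this region. The sets share 12 genes, and without both factors their 26 genes had a median of 0.35, with 20 above 0. All 252 compared X-linked genes had a median of 0.07, with 151 above 0, and among them EIF1AX itself ranked 11 and EIF2S3 22 from the top. Other stretches of the chromosome were not compared. Outside the X chromosome, 7307 genes had a median of 0.00. In treated cells the medians of the EIF1AX and EIF2S3 neighbours were 0.02 and -0.07, with 10 and 7 of 20 above 0. The copy number of this region was not measured.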
